A study of Homo sapiens with 18 samples.

Results

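The change of the response to macrophage-stimulating protein (MSP) between 1 h and 4 h was measured by RNA sequencing in BxPC-3 cells, an established human pancreatic cancer line. For each gene it is the MSP effect at 4 h (MSP against vehicle) minus the MSP effect at 1 h, on the log2 scale. It rests on 12 of the 18 libraries of the series, which are 3 each of vehicle at 1 h, MSP at 1 h, vehicle at 4 h and MSP at 4 h, and it was computed for the 16794 of 58395 genes that passed a filter on low counts. The vehicle was phosphate-buffered saline, MSP was given at 100 ng/ml, and all groups were grown in RPMI with fetal bovine serum. The other 6 libraries, from cells given hepatocyte growth factor (HGF) at 80 ng/ml, entered the fit to estimate the spread and are set beside the MSP values at the end. The results concern a single cell line. The labels call the libraries triplicates and name no separate cultures. The p-values therefore reflect only how these samples varied, and that variation may be technical.

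MSP is the ligand of RON, a receptor tyrosine kinase encoded by MST1R and related to MET, the HGF receptor. Receptors of this kind signal through RAS and ERK, which switch on immediate-early genes within minutes without new protein synthesis. Many of these genes encode transcription factors (EGR and AP-1 families), EGF-receptor ligands, or phosphatases and adaptors that dampen the signal again, and their transcripts are short-lived. The design asks how much of the early response was still there, and what had appeared, at the later time.

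Total counts of the 12 libraries ranged from 31258894 to 48477215, and mitochondrial genes held 8.36% to 9.39% of them. A gene with no counts could still have up to 3, which is 0.0619 to 0.096 CPM of library totals. CPM stands for counts in relation to library size. Levels below are CPM scaled by TMM factors, except the marker sums, which are CPM of library totals. This floor covers counting error only, while the 95% intervals below come from the fit and include the spread between libraries. Replicate pairs differed by more than counting noise, most in the MSP libraries at 1 h (chi-square per degree of freedom 7, 9.98 and 19.4, against 2.9 to 5.56 in the other groups). The cell type was checked against markers. The summed level of 9 ductal epithelial markers lay between 5.52e+03 and 6.18e+03 CPM, while 10 fibroblast markers summed to 19.5 to 23.3 CPM and 12 leukocyte and endothelial markers to 9.06 to 12.8 CPM. Of the latter 2 lists, 5 and 8 genes were tested, and none had an adjusted p under 0.05 for a change of the MSP effect. Over all genes tested 0.322% did, so the markers are not shown to be unchanged. MST1R was present at 56.4 to 73.6 CPM and its MSP effect changed by 0.09 (SE 0.09, adjusted p = 0.926). For MET, at 763 to 844 CPM, the change was -0.05 (SE 0.06, adjusted p = 0.938). Adjusted p-values throughout come from the quasi-likelihood test of edgeR, adjusted by Benjamini-Hochberg over the genes tested, and "called" means an adjusted p under 0.05.

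The MSP effect was smaller at 4 h than at 1 h for a set of immediate-early and feedback genes, and larger for few genes. Of 16794 genes, 54 were called (0.322%), with 46 lower over time (0.274%) and 8 higher (0.0476%). The lower genes were led by EGR2, CCN2, EGR3, EGR1, RASD1 and FOS, the 6 whose effect differed by at least 2-fold. All 46 were protein-coding, and their change ran from -1.75 to -0.27 with a median of -0.50, against -0.01 over all genes tested. Among the 8 higher genes were LRP8, HAS2, the non-coding LINC02725 and 5 processed pseudogenes. The lower count was 34 to 59 when any 1 library was left out. The count of higher genes was 2 without replicate 1 of MSP at 1 h and 22 without replicate 3 of that group, so it rests on single libraries.

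**Figure D1:**
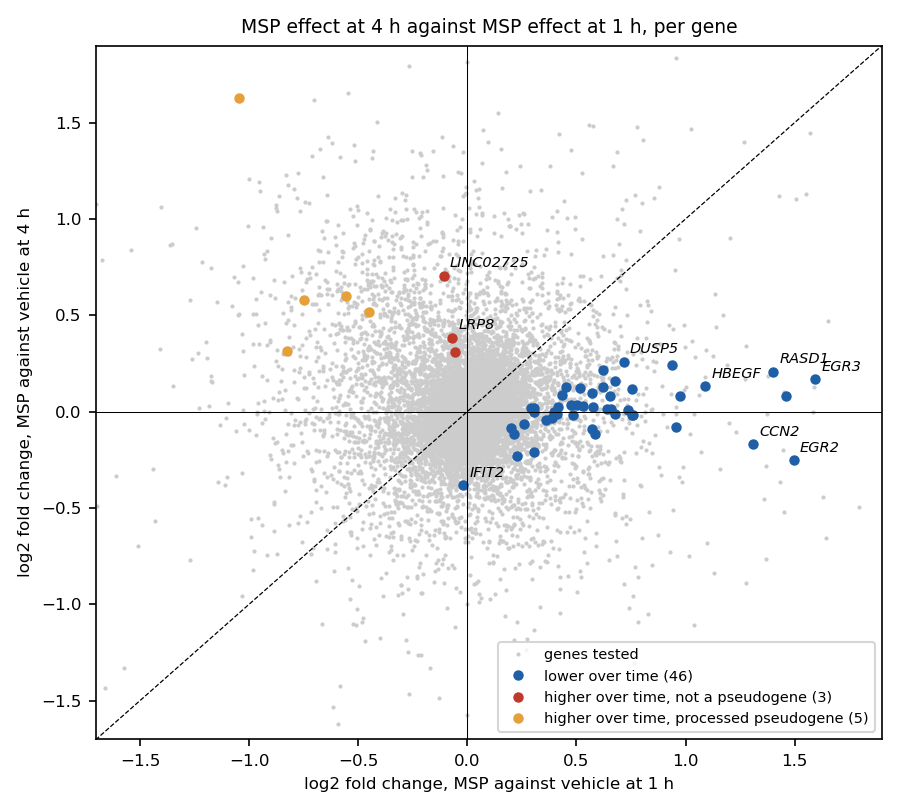
Each point is a gene, with its log2 fold change of MSP against vehicle at 1 h on the horizontal axis and at 4 h on the vertical axis. The dashed line marks equal effects, and 25 genes lie outside the axes. The 46 genes lower over time form a band to the right of zero at 1 h that lies close to zero at 4 h, with IFIT2 apart.

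The change is made of the effects at both times, from the same libraries, so those effects describe it and are no separate evidence for it. At 1 h the 46 genes had a median MSP effect of 0.57 and at 4 h of 0.02. The 1 h comparison called 44 of them higher (131 genes in all, 0.78% of those tested), the exceptions being GADD45B and IFIT2. In 45 of the 46, each MSP library stood above each vehicle library at 1 h. At 4 h this held for 10, the groups overlapped in 31, and in 5 each MSP library stood below. The share of all tested genes separated in this way was not counted, so these counts only describe the 46 genes. The 4 h comparison called 3 of the 46, with DUSP5 and VEGFA higher (130 genes in all, 0.774%) and IFIT2 lower (49 genes, 0.292%).

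In the scatter of the effects at both times these genes therefore lie along the horizontal axis. Beside this, the vehicle libraries themselves differed between the times. Vehicle levels were called lower at 4 h than at 1 h for 28 of the 46 genes (1677 genes in all, 9.99%) and higher for 4, RNF39, NUAK1, BTG2 and DNAJB1 (1836 genes, 10.9%). Genes on the opposite strand overlap RNF39 and DNAJB1, so their counts are uncertain. Over all 46 genes the median vehicle change was -0.28 on the log2 scale, and that of the MSP-treated libraries -0.78. The change of the MSP effect is what remained once the vehicle change was subtracted. In bulk libraries a lower level in each cell and a response in fewer cells cannot be told apart.

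EGR1 and EGR2 encode zinc-finger transcription factors, and FOS and FOSB encode AP-1 subunits. Their promoters are printed because such promoters are known to carry serum response elements and cAMP response elements (CRE). The core of a serum response element is named the CArG box. The effects of these 4 genes changed strongly, but they are not the 4 largest changes. CCN2, EGR3, RASD1 and HBEGF changed more than FOSB and are not printed. Each line gives the 250 bases before the start site, 5′ to 3′ on the gene's strand, from RefSeq on GRCh38.p14. Capitals mark matches to the CArG box or to the short CRE motif TGACG, which reads CGTCA on the other strand.
EGR1 (chr5:138465229-138465478, plus strand): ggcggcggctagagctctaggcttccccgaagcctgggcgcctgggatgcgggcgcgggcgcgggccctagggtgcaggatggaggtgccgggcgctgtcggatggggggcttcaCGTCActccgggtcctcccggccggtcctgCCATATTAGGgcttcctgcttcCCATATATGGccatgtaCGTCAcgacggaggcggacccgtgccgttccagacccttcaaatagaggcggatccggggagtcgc
EGR2 (chr10:62816367-62816616, minus strand, the third of 3 start sites listed): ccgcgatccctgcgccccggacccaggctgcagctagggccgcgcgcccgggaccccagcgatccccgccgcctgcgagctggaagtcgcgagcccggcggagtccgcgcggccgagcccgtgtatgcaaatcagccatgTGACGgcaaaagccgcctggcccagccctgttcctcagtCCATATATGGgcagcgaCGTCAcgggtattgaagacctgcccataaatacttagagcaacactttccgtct
FOS (chr14:75278578-75278827, plus strand): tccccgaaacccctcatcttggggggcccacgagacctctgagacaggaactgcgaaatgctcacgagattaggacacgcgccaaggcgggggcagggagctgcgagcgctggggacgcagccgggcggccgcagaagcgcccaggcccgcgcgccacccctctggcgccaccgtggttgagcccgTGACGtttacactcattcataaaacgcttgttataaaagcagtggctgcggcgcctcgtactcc
FOSB (chr19:45467746-45467995, plus strand): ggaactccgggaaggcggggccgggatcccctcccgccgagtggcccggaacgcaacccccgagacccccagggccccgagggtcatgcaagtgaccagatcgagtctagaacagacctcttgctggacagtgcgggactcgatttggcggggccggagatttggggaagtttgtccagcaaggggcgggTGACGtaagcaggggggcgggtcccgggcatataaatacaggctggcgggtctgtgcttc

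EGR1 held 2 CArG boxes, whose first bases lie 105 and 83 bases before the start, and 2 short CRE motifs, at 135 and 66. The EGR2 promoter shown held 1 CArG box at 71 and short CRE motifs at 110 and 54. Its other listed start sites, not shown, had neither motif in this window. FOS and FOSB each held 1 short CRE motif, at 64 and 60, and no CArG box in this window. Of the genes that changed more than FOSB and are not printed, RASD1 held the short CRE motif. CCN2 and HBEGF held neither motif, and EGR3 had no promoter in the table. Of the 46 genes lower over time, 36 had a promoter in the table (49 promoters). The CArG box was found on either strand in 2 of these 49 promoters (4.08%), those of EGR1 and EGR2, against 1.16% of all 35116 promoters of this length. The short CRE motif was in 42.9% of the 49, against 21.2% of all promoters and 27% of those of tested genes. Counted by gene, it was in 52.8% of the 36, against 34.8% of the tested genes with a promoter. The AP-1 site, TGACTCA or TGAGTCA, was also searched. It was in 4.08% of the 49, against 4.2% of all promoters and 3.37% of those of tested genes. The full CRE, TGACGTCA, which contains the short CRE motif, was in 6.12% of the 49 (EPHA2, PPP1R15A and ZFP36L1). It was in 1.65% of all promoters and 2.45% of those of tested genes. These matches describe letters in the window and not binding.

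The EGR family had the largest changes. Its list (EGR1 to EGR4 and the corepressors NAB1 and NAB2) had 3 of 6 genes called lower over time, a median change of -1.03, and medians of 1.32 at 1 h and 0.12 at 4 h. EGR2 (ENSG00000122877) was at 3.60, 4.07 and 3.67 CPM in vehicle and at 9.50, 11.8 and 10.8 CPM after MSP at 1 h. By 4 h it stood at 1.24, 1.07 and 1.11 CPM in vehicle and at 1.01, 0.803 and 1.02 CPM after MSP. The MSP libraries were thus well above vehicle at 1 h and all slightly below it at 4 h. Its log2 effect was 1.5 at 1 h and -0.25 at 4 h (adjusted p = 0.664 at 4 h), a change of -1.75 (SE 0.21, adjusted p = 1.15e-05).

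EGR1 (ENSG00000120738), at higher levels, was at 57.8, 71.7 and 69.2 CPM in vehicle and at 169, 196 and 182 CPM after MSP at 1 h. Its 4 h levels were 50.2, 47.3 and 51.2 CPM in vehicle and 47.3, 52.3 and 57.6 CPM after MSP. The groups were separate at 1 h and overlapped at 4 h. The 2.75-fold rise at 1 h was followed by a log2 effect of 0.08 at 4 h (95% interval -0.11 to 0.27), a change of -1.38 (SE 0.12, adjusted p = 1.25e-05). EGR3, whose count is uncertain because a gene on the opposite strand overlaps it, went from an effect of 1.59 to 0.17 (change -1.42, SE 0.14, adjusted p = 6.46e-07). Its vehicle level was 11.5 ± 1.03 CPM at 1 h and 2.76 ± 0.21 CPM at 4 h (SD, n = 3). EGR4 rose 2.25-fold at 1 h, but at 0.505 to 4.17 CPM its change of -0.67 (SE 0.29) was not called (adjusted p = 0.526). NAB2, an EGR corepressor, rose by 0.24 at 1 h (adjusted p = 0.00528) and was at 0.15 at 4 h, with a change of -0.08 (adjusted p = 0.877).

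**Figure D2:**
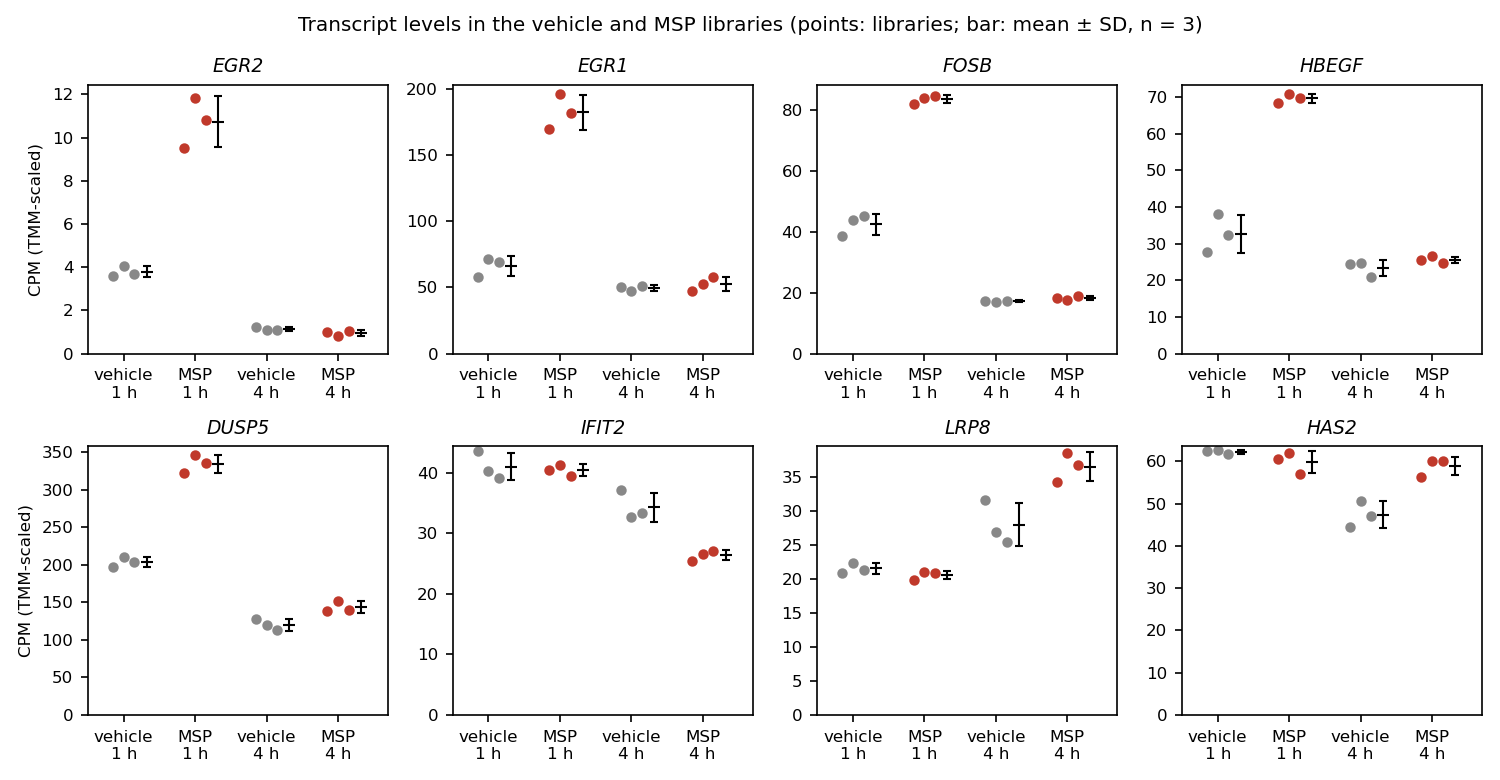
CPM per library (points) with mean ± SD (bars, n = 3) for 8 genes in the 4 groups. EGR2, EGR1, FOSB and HBEGF stand above vehicle at 1 h and near it at 4 h, DUSP5 stands above it at both times, IFIT2 stands below it at 4 h, and LRP8 and HAS2 stand above it at 4 h.

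Among 8 AP-1 subunits, 4 were called lower over time: FOS, FOSB, JUN and JUNB. Their list had a median effect of 0.62 at 1 h and -0.01 at 4 h. FOSB (overlapped on the opposite strand) was at 38.5, 43.8 and 45.2 CPM in vehicle and at 82, 84 and 84.7 CPM after MSP at 1 h. The 4 h libraries had it at 17.3, 16.9 and 17.4 CPM in vehicle and at 18.1, 17.6 and 18.9 CPM after MSP. The vehicle level had itself dropped, and the MSP libraries at 4 h exceeded it by little, with no overlap. The change was -0.89 (SE 0.08, adjusted p = 1.01e-07). FOS was at 15.1, 16.1 and 15.1 CPM in vehicle and 30.5, 30.7 and 28.4 CPM after MSP at 1 h, and at 10.3, 11.8 and 11 against 10, 9.72 and 11.6 CPM at 4 h. FOS therefore overlapped vehicle at 4 h, with a change of -1.03 (SE 0.12, adjusted p = 2.65e-05). JUN changed by -0.65 and JUNB, also overlapped on the opposite strand, by -0.55 (adjusted p = 8.94e-07 and 3.06e-06). FOSL1, the fifth subunit to rise at 1 h, was still higher at 4 h: its effects were 0.83 and 0.47 (adjusted p = 2.83e-06 and 0.0139), and its change of -0.36 was not called (SE 0.12, adjusted p = 0.337). JUND, FOSL2 and ATF3 were called in none of the 3 comparisons.

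Of 22 other immediate-early genes, 15 rose at 1 h, 1 was called higher at 4 h, and 10 were called lower over time. RASD1, a RAS-related small GTPase, was at 3.03, 3.68 and 2.68 CPM in vehicle and at 8.19, 8.06 and 8.57 CPM after MSP at 1 h. Later, at 4 h, it was at 2.53, 2.88 and 2.47 CPM in vehicle and at 2.62, 3.7 and 2.89 CPM after MSP, with overlap. Its change was -1.19 (SE 0.17, adjusted p = 9.7e-05). The orphan nuclear receptor NR4A1 changed by -0.69 (SE 0.13, adjusted p = 0.00855), from an effect of 0.94 to 0.24. The nuclear protein CSRNP1 changed by -0.78, the zinc-finger factor KLF10 by -0.50, and ZFP36, which binds AU-rich elements and promotes decay of mRNAs that carry them, by -0.47 (adjusted p = 9.6e-05, 9.6e-05 and 8.68e-05). NR4A3, at 0.238 to 2.01 CPM, rose at 1 h by 0.96, and its change of -0.93 was not called (SE 0.35, adjusted p = 0.423). MYC, picked after its values were seen, rose from 107 ± 0.29 to 146 ± 6.51 CPM at 1 h (SD, n = 3). At 4 h it was at 77.4 ± 3.04 CPM in vehicle and 84.6 ± 1.12 CPM after MSP, a change of -0.32 (adjusted p = 0.013).

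Feedback inhibitors of ERK signalling limit the pathway that induces them. Of 19 genes listed as ERK phosphatases and feedback inhibitors, 9 rose at 1 h and 2 were called higher at 4 h. The 4 called lower over time were DUSP5, DUSP6, ERRFI1 and EPHA2. EPHA2 is an Eph receptor kinase, and its count is uncertain because a gene on the opposite strand overlaps it. The list's median effect was 0.25 at 1 h and 0.11 at 4 h, with a median change of -0.10. DUSP6, an ERK phosphatase with an overlapping gene on the opposite strand, was at 173, 178 and 171 CPM in vehicle and at 267, 286 and 250 CPM after MSP at 1 h. By 4 h it stood at 145, 151 and 143 CPM in vehicle and at 158, 164 and 158 CPM after MSP. Each MSP library was above each vehicle library at both times, while the 4 h effect of 0.12 was not called (95% interval 0.04 to 0.21, adjusted p = 0.182). The change was -0.50 (SE 0.06, adjusted p = 1.15e-05). ERRFI1, an inhibitor of the EGF receptor that is also overlapped on the opposite strand, changed by -0.52 (SE 0.07, adjusted p = 1.25e-05).

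DUSP5, a nuclear ERK phosphatase named after its values were seen, was at 197, 210 and 204 CPM in vehicle and at 322, 346 and 336 CPM after MSP at 1 h. Its 4 h levels were 128, 119 and 113 CPM in vehicle and 139, 152 and 140 CPM after MSP. It was higher at both times (log2 effects 0.72 and 0.26, adjusted p = 7.49e-12 and 0.00622), with a change of -0.46 (SE 0.07, adjusted p = 0.000142). SPRY4, a Sprouty inhibitor of RAS-ERK signalling, rose by 0.78 and 0.38 (adjusted p = 1.42e-08 and 0.0202), and its change of -0.40 was not called (SE 0.11, adjusted p = 0.163). DUSP4, also outside the naming rule, was at 0.25 and 0.15, with a change of -0.09 (adjusted p = 0.816).

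HBEGF is a secreted ligand of the EGF receptor. It was at 27.7, 38.1 and 32.3 CPM in vehicle and at 68.4, 70.9 and 69.6 CPM after MSP at 1 h. The 4 h libraries had it at 24.4, 24.6 and 20.9 CPM in vehicle and at 25.4, 26.5 and 24.7 CPM after MSP, barely separate from vehicle. The change was -0.96 (SE 0.12, adjusted p = 0.0001). Of 6 tested EGF-family ligands HBEGF was the one called lower over time by edgeR, while DESeq2 also called AREG for the change. AREG and EREG rose at 1 h (0.56 and 0.53) and had changes of -0.39 each that were not called (adjusted p = 0.0571 and 0.146). TGFA was at 0.15 and 0.13, with adjusted p of 0.218 and 0.242.

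PDGFB, a platelet-derived growth factor chain, changed by -0.62 (adjusted p = 0.00304), and GDF15, a stress-responsive TGF-beta family cytokine, by -0.72 (adjusted p = 0.000223). IL1A, a proinflammatory cytokine, changed by -0.64 (SE 0.13, adjusted p = 0.0189), but the call was lost in 8 of 22 alternatives, with adjusted p up to 0.0708. It was the one gene called by edgeR among 17 cytokine and NF-kB genes, where DESeq2 also called SOCS3 for the change. Of the 17, 4 rose at 1 h and 0 were called at 4 h. VEGFA, named after its values were seen and overlapped on the opposite strand, was at 186 ± 12.1 and 286 ± 2.50 CPM in vehicle and MSP at 1 h (SD, n = 3). The 4 h levels were 147 ± 11.3 and 171 ± 7.41 CPM. It was called higher at both times, with a change of -0.41 (SE 0.07, adjusted p = 0.00142). ZC3H12A, a ribonuclease that degrades inflammatory mRNAs, changed by -0.66 (adjusted p = 8.68e-05).

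In a list of 19 SRF, YAP and actin genes, 4 were lower over time while the list's median change was 0.02. CCN2, a matricellular protein, was at 4.78, 6.14 and 5.95 CPM in vehicle and at 13.6, 15.2 and 13.2 CPM after MSP at 1 h. Later, at 4 h, it was at 2.32, 1.52 and 1.84 CPM in vehicle and at 1.60, 1.69 and 1.75 CPM after MSP, with overlap. Its change was -1.48 (SE 0.23, adjusted p = 0.00162). The related CCN1 changed by -0.77 (SE 0.10, adjusted p = 0.0001), and AMOTL2, which a gene on the same strand overlaps, by -0.42. ANKRD1 changed by -0.69 (SE 0.14, adjusted p = 0.0295), a call lost in 10 of 22 alternatives with adjusted p up to 0.102. The cytoskeletal members ACTB, TPM4 and TAGLN, picked after their values were seen, had effects of 0.15, 0.08 and 0.53 at 1 h and of 0.19, 0.25 and 0.70 at 4 h. They were called at 4 h, and none of the 3 was called for the change. ID1, an inhibitor of helix-loop-helix factors, changed by -0.57 (SE 0.07, adjusted p = 5.72e-06), and RNF39, a RING finger protein overlapped on the opposite strand, by -0.70 (adjusted p = 3.25e-05).

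**Figure D3:**
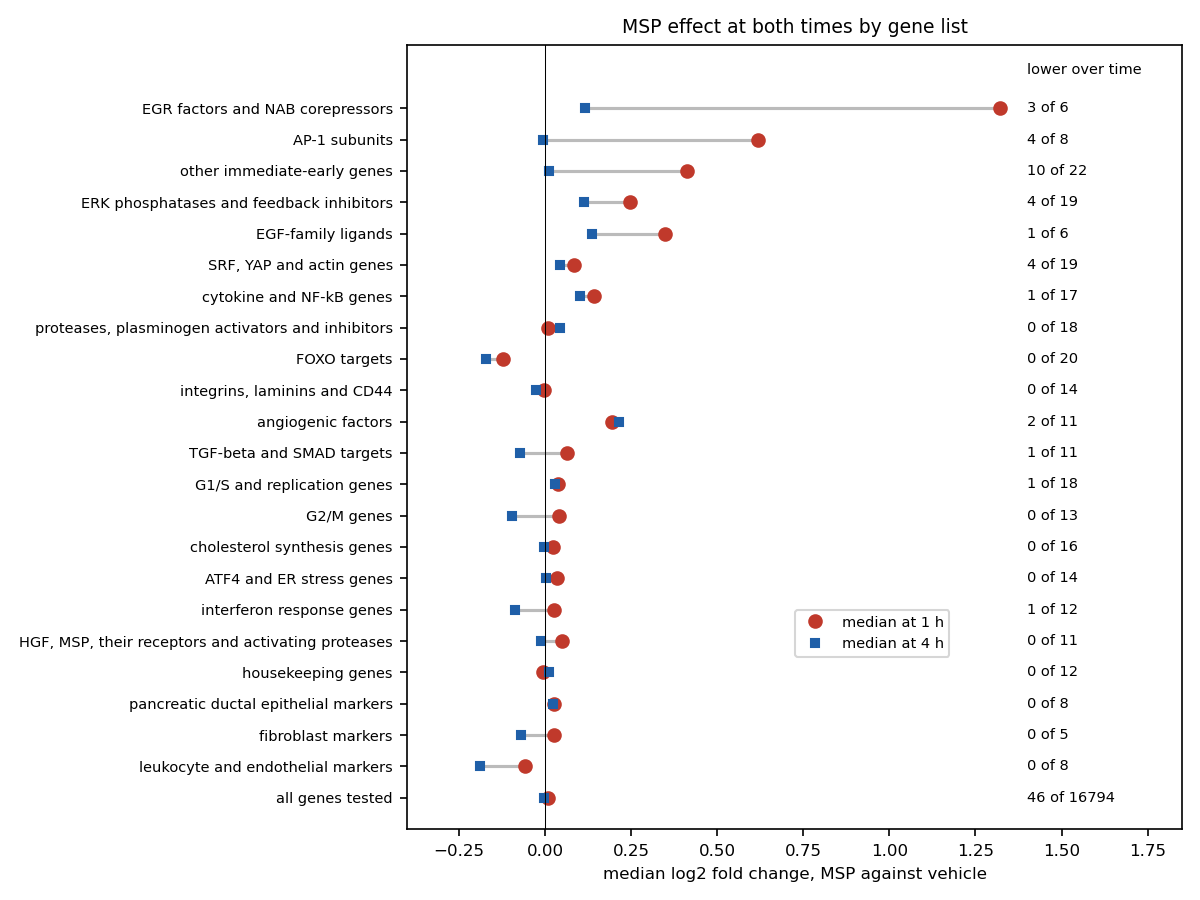
For each gene list, the median log2 fold change of MSP against vehicle at 1 h (circles) and at 4 h (squares), with the number of tested members called lower over time at the right. The EGR list runs from 1.32 to 0.12 and the AP-1 list from 0.62 to -0.01, while most other lists stay close to 0 at both times.

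The plot of list medians shows the same order: the EGR, AP-1 and other immediate-early lists had the widest gaps between the times. No list had a gene called higher over time, but only 8 of all 16794 genes tested were called so (0.0476%). The lists of integrins and laminins (14 tested), proteases (18), FOXO targets (20), G2/M genes (13), cholesterol synthesis (16), ATF4 and endoplasmic reticulum stress (14), ligands and receptors (11), housekeeping genes (12) and ductal markers (8) had 0 genes called either way by edgeR, and their median changes lay between -0.13 and 0.03. Of their 126 members 18 had an unadjusted p under 0.05 in edgeR, beside 1298 of all 16794 genes tested. DESeq2 called BMF and MMP13 (94 genes in all), and limma-voom called 1 (55 in all). The lists are thus not shown to be unchanged. CDKN1A, a cyclin-dependent kinase inhibitor, was the one called gene of 18 G1/S genes, at -0.40 (adjusted p = 0.00143).

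The FOXO targets, genes that FOXO factors activate when growth-factor signalling is low, had different members called at each time, which does not show that the times differ. DEPP1, CITED2 and ARRDC3 fell at 1 h (9 genes in all, 0.0536% of those tested), by 0.60, 0.32 and 0.30, with changes of 0.51, 0.16 and 0.14 that were not called (adjusted p = 0.128, 0.603 and 0.838). BMF, PIK3IP1 and FBXO32 fell at 4 h, by 0.44, 0.41 and 0.35, with changes of -0.39, -0.27 and -0.22 (adjusted p = 0.0543, 0.292 and 0.507). All 6 were picked after their values were seen. BMF, a proapoptotic BCL2 family member, was at 28.3, 28.4 and 27.1 CPM in vehicle and at 22, 20.1 and 19.7 CPM after MSP at 4 h. At 1 h it was at 26.8, 24 and 23.6 against 23.7, 23.2 and 24.9 CPM. The groups overlapped at 1 h and were separate at 4 h.

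IFIT2, an interferon-stimulated gene named after its values were seen, was lower over time without an early rise. It was at 43.5, 40.3 and 39.1 CPM in vehicle and at 40.5, 41.3 and 39.4 CPM after MSP at 1 h. At 4 h it was at 37.1, 32.6 and 33.3 CPM in vehicle and at 25.4, 26.6 and 27.1 CPM after MSP. The groups overlapped at 1 h, and each MSP library was below vehicle at 4 h. Its change was -0.36 (SE 0.08, adjusted p = 0.0318), and a gene on the opposite strand overlaps it. Of 12 interferon response genes it alone was called for the change, IFIT2 and IFIT3 were called lower at 4 h, and the list's median change was -0.15.

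LRP8, a receptor for reelin and apolipoprotein E, and HAS2, a hyaluronan synthase, were the 2 protein-coding genes whose effect was higher at 4 h. LRP8 was at 20.9, 22.4 and 21.4 CPM in vehicle and at 19.9, 21 and 20.8 CPM after MSP at 1 h. By 4 h it stood at 31.6, 26.9 and 25.4 CPM in vehicle and at 34.3, 38.5 and 36.7 CPM after MSP. The groups overlapped at 1 h and were separate at 4 h, and the change was 0.45 (SE 0.09, adjusted p = 0.0126). The call was lost in 5 of 22 alternatives, each of which left out 1 library (adjusted p up to 0.0763).

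HAS2 was at 62.4, 62.6 and 61.7 CPM in vehicle and at 60.5, 62 and 57 CPM after MSP at 1 h. Its 4 h levels were 44.5, 50.7 and 47 CPM in vehicle and 56.3, 60 and 60.1 CPM after MSP. The vehicle level was lower at 4 h by 0.39 (adjusted p = 6.09e-06) while the MSP-treated level differed by -0.02 between the times (adjusted p = 0.778). The MSP effect therefore changed by 0.37 (SE 0.08, adjusted p = 0.0149), a call lost in 3 of 22 alternatives, each without 1 library (adjusted p up to 0.0723). Both genes have an overlapping gene on the opposite strand. LINC02725 went from 3.50 ± 0.34 CPM after MSP at 1 h to 4.73 ± 0.34 CPM at 4 h, against 3.79 ± 0.68 and 2.90 ± 0.16 CPM in vehicle (SD, n = 3). Its change was 0.81 (SE 0.17, adjusted p = 0.0185), with the call lost in 8 of 22 alternatives.

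The other 5 higher genes were processed pseudogenes, whose counts are uncertain because near-identical copies share reads: RPL24P4, RPL10P9, GAPDHP1, CALM2P3 and ENSG00000225200. GAPDHP1 was at 6.94, 6.68 and 6.02 CPM in vehicle and at 4.28, 4.07 and 4.99 CPM after MSP at 1 h. The 4 h libraries had it at 6.02, 5.08 and 5.48 CPM in vehicle and at 7.72, 10.3 and 7.23 CPM after MSP. It was below vehicle at 1 h and above it at 4 h, a change of 1.16 (SE 0.22, adjusted p = 0.0132). RPL10P9 changed by 1.14 and RPL24P4 by 0.96 (adjusted p = 0.0145 and 0.00836). The GAPDHP1 call was lost in 3 of 21 alternatives and that of RPL10P9 in 5 of 21, each without 1 library (adjusted p up to 0.0673 and 0.0754). The functional genes GAPDH, RPL10 and RPL24 had changes of -0.04, 0.05 and -0.01 (adjusted p = 0.966, 0.95 and 0.991).

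Processed pseudogenes moved this way as a class. Over the 603 tested the median MSP effect was -0.33 at 1 h and 0.43 at 4 h, and the median change 0.78, positive in 88.4%. Over 13053 protein-coding genes the median change was -0.01, positive in 44.8%. The share of all counts on processed pseudogenes was 0.13% to 0.141% in vehicle and 0.113% to 0.125% after MSP at 1 h. At 4 h it was 0.128% to 0.139% in vehicle and 0.148% to 0.168% after MSP. Each MSP library was below vehicle at 1 h and above it at 4 h. The part of library quality or read assignment in this was not tested. With annotated pseudogenes left out of the fit, an alternative chosen after seeing the data, 44 genes were lower and 5 higher over time, and 44 of the 46 lower genes remained called.

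**Figure D4:**
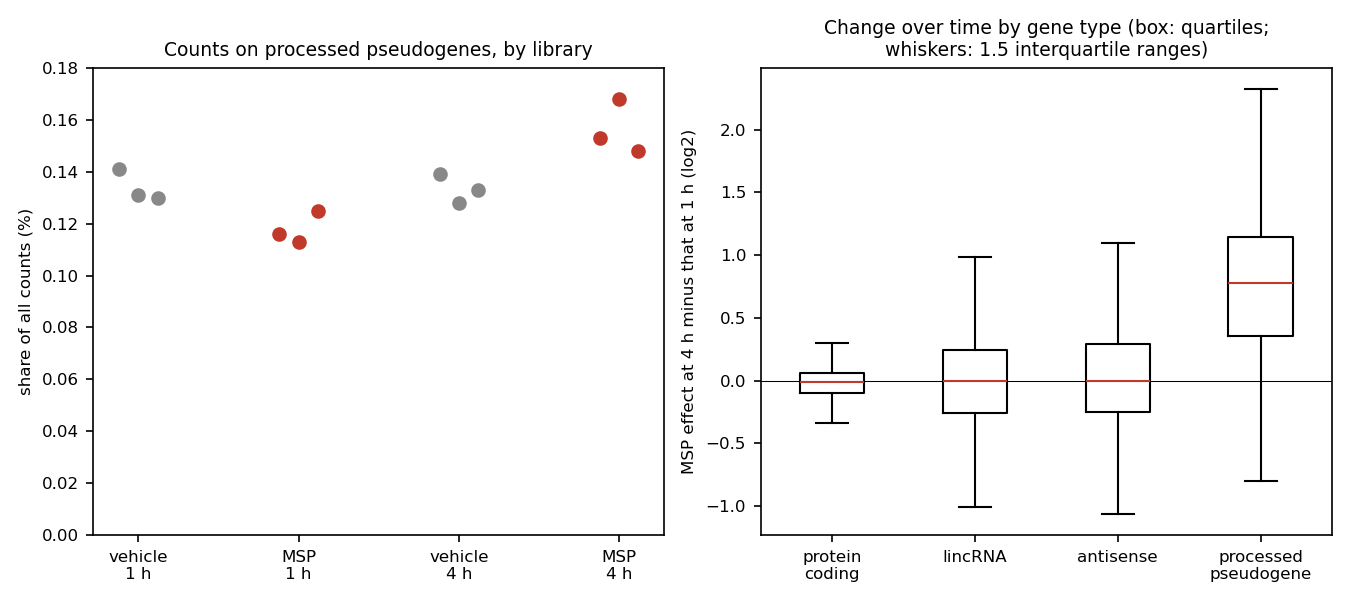
Left, the share of all counts on processed pseudogenes in each library (percent). Right, the MSP effect at 4 h minus that at 1 h (log2) by gene type, with boxes at the quartiles and whiskers to 1.5 interquartile ranges, where the processed pseudogenes have a median of 0.78 and the other 3 types lie around 0.

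Of 140 genes called at 1 h (0.834%) 131 were higher, and 87 of these were not called for the change. Their median effect was 0.29 at 1 h and 0.09 at 4 h, and their median change was -0.19. The SE of the change had a median of 0.13 over all genes and of 0.08 over the 7181 genes at 20 CPM or more, and the smallest called change was 0.27. The median change of the 87 genes was thus smaller than any change called. Conversely, 11 genes were called higher at both times, which is 8.4% of the 131 and 8.46% of the 130 higher at 4 h. They were MALL, HS3ST1, SPRY4, VEGFA, ZYX, TNFRSF10A, LRRC8A, FOSL1, DUSP5, MYADM and MAFF, and 9 of them, all but DUSP5 and VEGFA, were not called for the change.

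MYADM, a membrane protein, was at 64.2, 74.1 and 69.1 CPM in vehicle and at 86.9, 89.5 and 92 CPM after MSP at 1 h. Later, at 4 h, it was at 64, 65.5 and 65.1 CPM in vehicle and at 78.1, 93.3 and 85.2 CPM after MSP. Both times were separate from vehicle and the change was 0.03 (SE 0.08, adjusted p = 0.987). ZYX, which encodes the focal adhesion protein zyxin, had effects of 0.26 and 0.31, and MALL 0.26 and 0.30, with changes of 0.05 each (SE 0.08 and 0.09). MAFF, a small MAF factor, had effects of 0.56 and 0.25, and its change of -0.31 was not called (adjusted p = 0.0831).

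Among the 130 genes higher at 4 h the median effect was 0.26 at 4 h and 0.07 at 1 h, and 5 were called higher over time. Of 49 genes lower at 4 h (median -0.26, and -0.02 at 1 h) IFIT2 was the one called for the change. Of the genes higher at 4 h, 4 more, picked after their values were seen, were not called for the change. AKAP12, a kinase-anchoring protein, was at 18, 28.4 and 23 CPM after MSP at 4 h against 13.6, 11.6 and 10.7 CPM in vehicle. Its effects were 0.37 at 1 h and 0.94 at 4 h, and the change of 0.58 was not called (SE 0.21, adjusted p = 0.47). STC1, a secreted glycoprotein, had effects of 0.30 and 0.58, with a change of 0.28 (adjusted p = 0.471). NOP56 and MYBBP1A, nucleolar proteins, had effects of 0.31 and 0.30 at 4 h and changes of 0.25 and 0.30 (adjusted p = 0.113 and 0.0912).

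The 4 h counts rest on single libraries. In place of 179 genes (1.07%), 16 were called without replicate 2 of MSP at 4 h, 20 without replicate 3 and 32 without replicate 2 of vehicle at 4 h, and 83 without replicate 3 of MSP at 4 h.

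The HGF libraries allow the same difference for a second ligand. Both ligands were compared with the same vehicle libraries, so their effects are set side by side and no overlap is drawn from them. For the 46 genes lower over time after MSP, the median HGF effect was 2.38 at 1 h and 1.19 at 4 h, where that of MSP was 0.57 and 0.02. The difference of the changes (MSP 4 h minus HGF 4 h, minus the same at 1 h) needs no vehicle library, though it shares the MSP libraries with the values above. It was called for 8580 genes (51.1%), 4123 higher (24.6%) and 4457 lower (26.5%). Scaling by library totals, not TMM factors, the split was 6459 higher and 2932 lower, since the median over all genes moved from 0.06 to 0.26. Of the 46 genes, 34 had a more negative change after HGF than after MSP (38 with library totals), 5 a less negative or positive one (3 with library totals) and 7 were not called.

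EGR2 had HGF effects of 6.05 at 1 h and 0.23 at 4 h, beside 1.5 and -0.25 for MSP, and the change after MSP was 4.07 less negative (95% interval 3.61 to 4.52, adjusted p = 1.06e-15). For EGR1 the HGF effects were 3.91 and 0.07, beside 1.46 and 0.08, with a difference of 2.46. Both ligands left EGR1 near vehicle at 4 h. FOSB kept an HGF effect of 1.49 at 4 h where that of MSP was 0.08. JUN had HGF effects of 2.49 and 1.84, and its changes after both ligands differed by -0.105 to 0.105 (95% interval, adjusted p = 0.998), which became 0.20 (adjusted p = 0.00961) with library totals. DUSP6 had HGF effects of 2.02 and 1.42 and a difference of 0.10 (95% interval -0.03 to 0.22, adjusted p = 0.19), or 0.30 (adjusted p = 5.19e-05) with library totals.

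IL1A, PDGFB and MYC went the other way under both scalings. The IL1A effect of HGF was 2.46 at 1 h and 2.73 at 4 h, beside 0.76 and 0.12 for MSP, and the difference of the changes was -0.91 (adjusted p = 6.29e-07). For MYC the HGF effects were 1.00 and 1.59, beside 0.45 and 0.13, with a difference of -0.91 (adjusted p = 3.33e-13), and for PDGFB it was -1.16 (adjusted p = 2.37e-11). The HGF effect, whose change was called for 53.2% of genes, itself changed by 0.59 for MYC and 0.54 for PDGFB (adjusted p = 3.73e-09 and 5.43e-05), and by 0.27 for IL1A, which was not called (adjusted p = 0.0612). IFIT2, lower at 4 h after MSP by 0.38, was lower by 2.52 after HGF. LRP8 and HAS2 had HGF effects of 2.10 and 2.27 at 4 h, beside 0.38 and 0.31 for MSP.

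**Figure D5:**
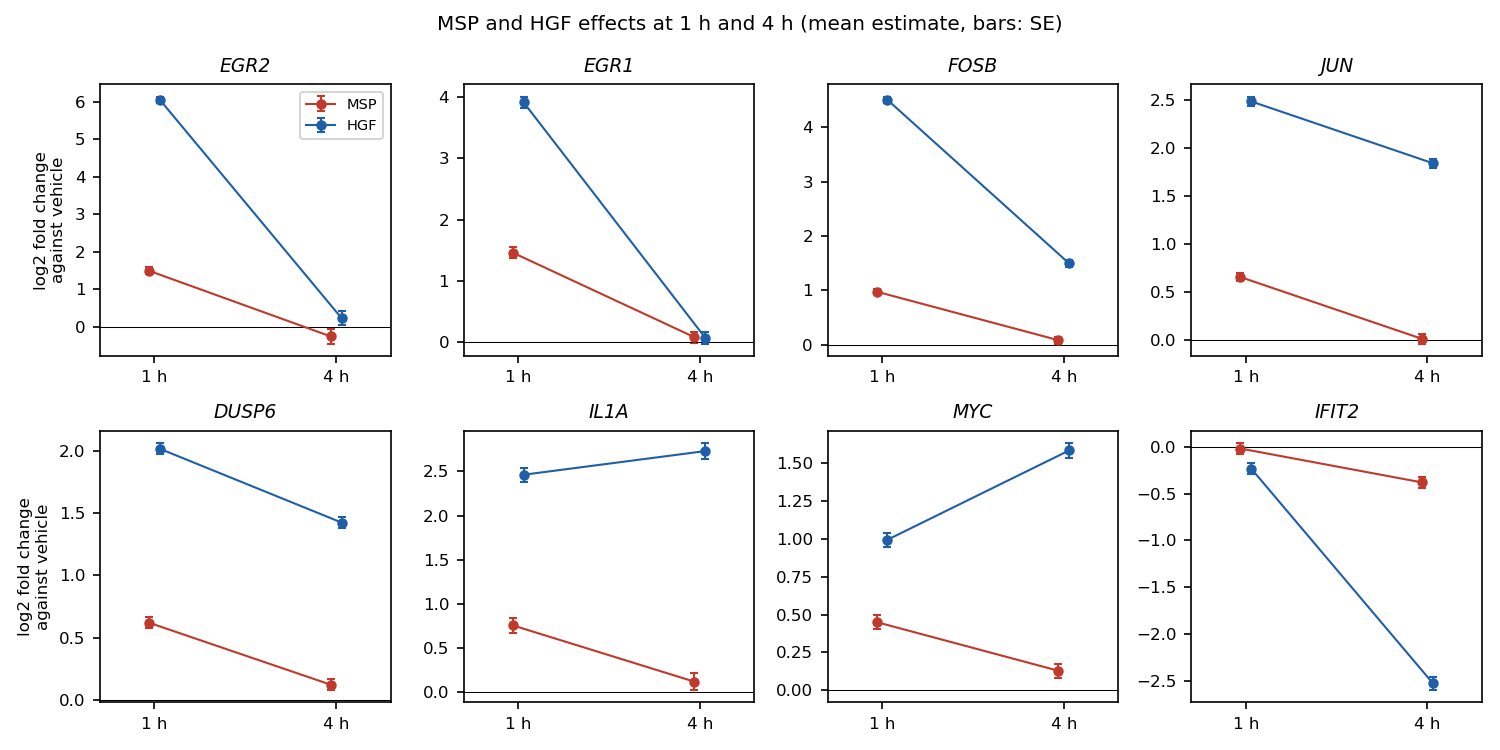
Log2 fold change against vehicle at 1 h and 4 h (points, with SE bars) after MSP and after HGF, for 8 genes, each on its own vertical scale. EGR2 and EGR1 come back to near vehicle after both ligands, FOSB, JUN and DUSP6 stay above vehicle after HGF, and the MYC effect is larger at 4 h than at 1 h after HGF.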

How the data were processed

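RNA was sequenced from vehicle-, HGF- and MSP-treated BxPC-3 cells at 1 h and 4 h, with 3 libraries in each of 6 groups. The values used are whole-number read counts per gene as deposited by the authors, 1 column per library. Reads were aligned with STAR and assigned with featureCounts of Subread, per the submitters' processing notes, and each sample was run in more than 1 lane, per the labels. The genome build, annotation release and strand setting were not given in the sources used here. Genes that overlap another on either strand, and pseudogenes, are therefore reported as uncertain. Of 58395 identifiers, 57754 matched the gene name table and 58275 matched GENCODE 29, and 26464 had 0 counts in every library.

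The counts were analysed in R 4.3.3 with edgeR 4.0.16. The filter filterByExpr (minimum count 10, minimum total 15) left 16794 genes and removed at most 0.0573% of a library's counts. TMM-scaled counts of all 18 libraries were fitted by robust quasi-likelihood, each group with 1 mean (12 residual degrees of freedom, biological coefficient of variation 5.23%), and p-values were adjusted (Benjamini-Hochberg, 0.05) over every gene in the fit. The tests were tested on simulated data. Alternatives used limma 3.58.1 and DESeq2 1.42.0. Levels, apart from the marker sums, are TMM-scaled CPM and compare a gene between groups, not genes with each other. Promoters are the 250 bases before RefSeq start sites on GRCh38.p14.

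The comparison, gene lists, naming rule and tests were chosen with earlier results of these data known. The rule named the 20 lower and up to 10 higher genes with the largest change among those called, with a symbol and a mean of at least 1 CPM. It added up to 3 called members of each list (at most 12 in all), the 6 genes with the largest effects called at both times but not for the change, MET and MST1R. Genes named outside this rule are said to be so, or are given as members of a list whose count they make up. Alternatives covered the scaling, the filter, the tool, the groups in the fit, a replicate block and leaving out each library.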

Additional observations from a re-analysis of the deposited data

Results flagged for a closer look

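The MSP effect differed between 4 h and 1 h, by the test of that difference itself (quasi-likelihood test of edgeR, Benjamini-Hochberg adjusted), for 54 genes. The 30 of them that the naming rule selected are given here by the MSP effect at 4 h minus that at 1 h, on the log2 scale. Among transcription factors it was -1.75 for EGR2, -1.42 for EGR3, -1.38 for EGR1, -1.03 for FOS and -0.89 for FOSB. For the further factors NR4A1, JUN, JUNB and KLF10 it was -0.69, -0.65, -0.55 and -0.50. For ID1, an inhibitor of helix-loop-helix factors, it was -0.57. Among secreted proteins it was -1.48 for CCN2, -0.96 for HBEGF, -0.77 for CCN1, -0.72 for GDF15, -0.64 for IL1A and -0.62 for PDGFB. Among regulators of signalling and of mRNA decay it was -1.19 for RASD1, -0.66 for ZC3H12A, -0.52 for ERRFI1, -0.50 for DUSP6 and -0.47 for ZFP36. It was -0.78 for CSRNP1, -0.70 for RNF39 and -0.69 for ANKRD1. The effect was higher at 4 h by 0.45 for LRP8, 0.37 for HAS2 and 0.81 for LINC02725, and by 1.16, 1.14 and 0.96 for the pseudogenes GAPDHP1, RPL10P9 and RPL24P4. Groups of 3 libraries are too small for a test of single outlying samples, so none was made.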

How the results depend on the processing

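Of the 38 named genes, 28 kept their side of the threshold in every alternative, 7 lost the call in at least 1, and FOSL1, SPRY4 and MAFF gained it in 1 each. No called change reversed, while MYADM, ZYX and MALL, with changes near 0 that were never called, took either sign when single libraries were left out. The change over time was called for 54 genes, and for 148 with no filter (72 higher, 76 lower) and 94 with DESeq2 (26 higher). The higher count was also 18 with only the groups compared and 5 without annotated pseudogenes. The lower genes numbered 39 to 68 under the other alternatives that kept every library. At 1 h 81 genes in place of 140 were called with only the groups compared. At 4 h the 179 became 354 with no filter, 305 with DESeq2 and 402 with only the groups compared. Leaving out 1 library gave 41 to 81 changed genes (2 to 22 higher, 34 to 59 lower), 94 to 183 at 1 h, 16 to 220 at 4 h, and 8069 to 8726 for MSP minus HGF. The cause was not tested. Whether replicate numbers pair the samples was not settled. Of 18 correlations of same-numbered deviations 8 were over 0.1 (range -0.173 to 0.228), and differently numbered libraries were not compared. With a replicate block 71 genes were called for the change (11 higher, 60 lower), and 228 at 4 h. Low counts limit single genes, with a median SE of the change of 0.13 over all genes and 0.08 at 20 CPM or more.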
